A study of Homo sapiens with 36 samples.

Results

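The genes described here are 48 human genes of mitosis and the spindle, all of which were present among the 19137 gene symbols of the deposited tables. They were listed by name for their known roles in entry into mitosis, spindle assembly, chromosome segregation and cytokinesis, with no threshold on a measured value. Each was represented by the transcript with the highest mean count, since 24 of the 48 had more than 1 transcript in the tables. The study measured ribosome footprints and RNA in 36 libraries from 2 models of transformation. In the first, libraries came from BJ foreskin fibroblast lines labelled EH, EL and ELR, which the labels do not spell out. Such names usually stand for cells given telomerase, then the SV40 early region, then oncogenic RAS. Per line there were 2 footprint libraries with cycloheximide (100 µg/ml for 90 s), 2 with harringtonine (2 µg/ml for 5 min) and 1 RNA library. In the second, MCF10A-ER-Src cells, a line of mammary epithelial cells whose Src oncogene is fused to an estrogen receptor domain, received 1 µM 4-hydroxytamoxifen for 1, 4 or 24 h. RNA libraries covered 0 h, ethanol at 1, 4 and 24 h and tamoxifen at 1, 4 and 24 h, with 1 library each. Cycloheximide footprints covered 0 h and the tamoxifen times in replicate 1, and the ethanol and tamoxifen times in replicate 2. Harringtonine footprints covered 0 h and the tamoxifen times in replicate 1 only.

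Cells enter mitosis when CDK1 bound to cyclin B is switched on by CDC25 phosphatases. Polo and Aurora kinases, kinesin motors and microtubule-associated proteins then build the spindle, and the spindle assembly checkpoint holds separase and the anaphase-promoting complex in check until every kinetochore is attached. Most of these genes are transcribed in late S phase to mitosis, from promoters that often carry a CHR element, read by the MuvB complex, together with CCAAT boxes, read by NF-Y. Cycloheximide arrests elongating ribosomes where they are. Harringtonine holds new ribosomes at the start codon while ribosomes that are already elongating run off the message.

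Total counts per library ranged from 1178012 to 2606344 for BJ cycloheximide footprints, 129175 to 214806 for BJ harringtonine footprints and 2071883 to 2551358 for BJ RNA. In the ER-Src cells they ranged from 1334866 to 3628073, 163092 to 374359 and 2225844 to 3008760. Libraries of 1 group carried replicate numbers, but no label says that they came from separate cultures, so a p-value measures the spread between libraries, which may be technical. That spread was small in BJ: replicate counts differed by a chi-square of 1.09 to 1.18 per gene, against 3.83 to 5.27 in ER-Src cycloheximide footprints. Fibroblast markers were plentiful in EH and scarce in ELR. The summed level of 12 fibroblast markers in BJ cycloheximide footprints was 26482 and 27263 scaled counts (CPM, relative to each library's normalised total) in EH, 3986 and 3944 in EL and 544 and 579 in ELR, where 2 and 3 of the 12 were at 0. The summed level of 12 epithelial markers was 315 and 314 CPM in EH, 66.5 and 69.3 in EL and 18.4 and 17.3 in ELR. Of these 12, KRT5, KRT6A, CDH1 and TP63 were at 0 in all 6 libraries, and DSP and JUP reached 252 and 74.6 CPM. In ER-Src cycloheximide footprints the epithelial markers summed to 11749.6 to 22291 CPM and the fibroblast markers to 54.2 to 152 CPM. COL1A2, COL3A1, COL5A1 and THY1 were at 0 there, while FAP had 35.6 to 125 CPM, DCN 2.25 to 21.0 and COL1A1 4.32 to 12.7. The lower levels of fibroblast and epithelial markers in EL and ELR moved with the line comparisons below, and their part in them was not tested.

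Of the 48 genes, 41 had an entry in the RefSeq promoter table (build GRCh38.p14, 250 bases before to 50 after the start), with 53 promoters. The letters TTTGAA of the CHR, or their reverse complement TTCAAA, stood in the promoter of 32 of the 41 genes (78.0%) and in 66.0% of the 53 promoters, against 15.2% of all 35116 promoters of that length. The second spelling of the CHR, TTCGAA, which reads alike on both strands, was in 3 promoters (5.66%, against 1.45% of all). CCAAT or its reverse complement ATTGG was in 37 promoters (69.8%, against 34.6% of all). Both TTTGAA and CCAAT were present for 25 of the 41 genes (61.0%, against 7.26% of all 27305 genes in the table). A second list of mitosis genes held TTTGAA in 29 of 59 genes, and a list of S phase genes held it in 1 of 25. Matches that overlap were counted for each motif, and a match is a run of letters, not a shown binding site.

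The 200 bases before the start are printed, 5′ to 3′ on the gene's strand, for 5 genes with large falls in footprints across the BJ lines and for AURKB, whose footprints rose. Capitals mark TTTGAA or TTCAAA and CCAAT or ATTGG. PLK1 (chr16:23678689-23678888, plus strand) and PRC1 (chr15:90994536-90994735, minus strand) each carried 1 CCAAT box upstream of 1 TTTGAA close to the start. TOP2A (chr17:40417897-40418096, minus strand) had 3 CCAAT boxes and 2 matches to TTTGAA farther from the start, and ASPM (chr1:197146670-197146869, minus strand) had 4 and 1. KIF20A (chr5:138178912-138179111, plus strand) and AURKB (chr17:8210250-8210449, minus strand) had 2 CCAAT boxes and 1, and neither spelling of the CHR in these bases. CENPF, which also had a large fall and is not printed, had 3 CCAAT boxes in its 200 bases. Its TTTGAA lay only after the start.
PLK1: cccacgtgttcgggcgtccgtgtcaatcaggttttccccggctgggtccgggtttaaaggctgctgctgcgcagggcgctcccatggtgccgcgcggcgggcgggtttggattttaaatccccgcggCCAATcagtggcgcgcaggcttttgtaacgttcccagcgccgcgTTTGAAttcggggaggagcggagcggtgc
PRC1: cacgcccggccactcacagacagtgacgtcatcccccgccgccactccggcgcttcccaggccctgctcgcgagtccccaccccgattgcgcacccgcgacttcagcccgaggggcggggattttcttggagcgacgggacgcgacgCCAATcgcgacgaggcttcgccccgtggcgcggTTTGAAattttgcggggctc
TOP2A: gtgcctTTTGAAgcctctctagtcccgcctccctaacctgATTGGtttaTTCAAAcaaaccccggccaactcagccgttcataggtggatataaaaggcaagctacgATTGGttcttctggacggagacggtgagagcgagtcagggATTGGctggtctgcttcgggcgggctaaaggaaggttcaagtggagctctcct
ASPM: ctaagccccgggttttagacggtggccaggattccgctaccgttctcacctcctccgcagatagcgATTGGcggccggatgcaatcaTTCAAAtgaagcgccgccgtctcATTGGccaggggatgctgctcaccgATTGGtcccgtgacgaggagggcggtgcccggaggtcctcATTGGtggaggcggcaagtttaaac
KIF20A: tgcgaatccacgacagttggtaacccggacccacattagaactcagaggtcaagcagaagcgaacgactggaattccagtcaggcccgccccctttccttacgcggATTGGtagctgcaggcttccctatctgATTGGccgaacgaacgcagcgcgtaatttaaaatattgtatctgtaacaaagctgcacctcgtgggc
AURKB: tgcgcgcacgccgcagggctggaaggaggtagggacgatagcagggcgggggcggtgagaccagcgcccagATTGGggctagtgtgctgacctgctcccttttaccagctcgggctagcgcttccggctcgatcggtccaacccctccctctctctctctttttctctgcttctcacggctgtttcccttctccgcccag

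Per kilobase of coding sequence, the most footprinted of the 48 genes had coding sequences under 500 codons. The length was that of the canonical transcript in GENCODE, which may differ from the counted transcript. In BJ cycloheximide footprints the mean level over the 6 libraries was 845 CPM per kb for UBE2C, the ubiquitin-conjugating enzyme of the anaphase-promoting complex, 725 for CCNB1 (cyclin B1) and 538 for BIRC5 (survivin, of the chromosomal passenger complex). The lowest were ESPL1 (separase, 10.1), the kinesin KIF14 (15.7) and the phosphatase CDC25C (22.4). RNA gave another order per coding kilobase, untranslated sequence not being included in the length. TOP2A (topoisomerase II alpha, 437), ANLN (anillin, 406) and PRC1 (which bundles midzone microtubules, 394) led, and ESPL1 (14.0) and the kinase AURKB (22.2) were lowest. In ER-Src cycloheximide footprints UBE2C (565) again led, followed by PTTG1 (securin, 505) and the checkpoint protein MAD2L1 (494), with ESPL1 (4.09) and ASPM (a spindle-pole protein, 8.07) at the foot. In ER-Src RNA the highest were PTTG1 (289) and PRC1 (247), and the lowest ESPL1 (6.96) and AURKB (11.4).

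Across the BJ lines, the footprints of most of these genes were lower in EL than in EH, and fewer were lower in ELR than in EL. In cycloheximide footprints, 35 of 48 genes fell from EH to EL and 2 rose (edgeR's quasi-likelihood test, Benjamini-Hochberg adjusted p under 0.05 over all genes). Of all 9996 genes tested, 22.4% were called lower and 19.1% higher. From EL to ELR, 20 fell and 7 rose, against 18.7% and 17.4% of all genes, and 15 of the 20 had also fallen from EH to EL. Between ELR and EH, 41 were lower and 2 higher, against 27.8% and 25.5%. The median log2 difference of the 48 was −0.37, −0.13 and −0.52 in these comparisons, and that of all genes −0.0058, −0.0093 and −0.0071. From EH to EL the falls varied with coding length. Of the 17 genes under 500 codons 10 were called lower (median −0.22), and of the 9 with 1500 codons or more 9 (median −0.78). Of other genes of these lengths 19.1% (median 0.082) and 41.3% (median −0.30) were called lower. The part of length in the result was not tested. EL against EH and ELR against EH share the EH libraries and are not separate evidence. Library levels did not overlap for 68.5% of all genes between EL and EH, 65.8% between ELR and EL and 75.2% between ELR and EH. Lack of overlap was also part of the rule for naming genes. In these bulk libraries, fewer cells in mitosis and less RNA per cell cannot be told apart.

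The spread between BJ replicates was close to counting noise, and the calls rest on it. In an alternative, the wider spread of the ER-Src cycloheximide libraries was put in its place, and edgeR's likelihood-ratio test replaced the quasi-likelihood test. There 14 of the 48 genes were called from EH to EL, 4 from EL to ELR and 27 between ELR and EH.

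Among the genes of the entry switch, 5 of 7 fell from EH to EL, 5 of 7 from EL to ELR and 6 of 7 between ELR and EH. CCNB1, cyclin B1, had 1120.0 and 1149 CPM in EH, 902 and 875 in EL, and 785 and 823 in ELR. Its levels did not overlap between EH and either other line, and the log2 difference was −0.37 from EH to EL (SE 0.041) and −0.52 from EH to ELR (SE 0.042). CDC25B, a phosphatase that activates CDK1, had 203 and 194 CPM in EH, 167 and 155 in EL, and 80.0 and 83.3 in ELR. The step to ELR was by far the greater for this gene, with a log2 difference of −0.995 from EL to ELR (SE 0.092, edgeR adjusted p = 6.8e-15) after −0.32 from EH to EL. CDK1, the kinase itself, had 501 and 482 CPM in EH, 451 and 412 in EL, and 392 and 370.2 in ELR, and fell at each step (−0.20 and −0.18). FOXM1, a transcription factor of this programme, was not called in any of the 3 comparisons, with 58.1 and 65.8 CPM in EH, 65.4 and 67.1 in EL, and 64.7 and 66.6 in ELR.

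PLK1, the polo kinase of spindle assembly and mitotic entry, had 548 and 586 CPM in EH, 319 and 314 in EL, and 263 and 275 in ELR. Both EH libraries stood well above the other 4, and PLK1 fell 1.81-fold from EH to EL (log2 difference −0.86, SE 0.058, adjusted p = 3.5e-21 by edgeR) and by a further 0.24 on the log2 scale to ELR. The Aurora kinase AURKA had 207 and 169.7 CPM in EH, 172 and 171 in EL, and 213 and 215 in ELR. It was not called between EL and EH and rose from EL to ELR (log2 difference 0.31, edgeR adjusted p = 4.7e-04). TTK, a checkpoint kinase, had 153 and 138 CPM in EH, 164 and 138 in EL, and 129 and 97.4 in ELR, and was called lower in ELR than in EL and than in EH, but not between EL and EH.

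The checkpoint and kinetochore genes had the lowest group median from EH to EL, −0.68, and 7 of 8 were called lower. CENPF, a very large kinetochore protein of 3114 codons, had 791 and 747 CPM in EH, 325 and 338 in EL, and 269 and 258 in ELR. The 3 lines did not overlap, and CENPF was 2.36-fold lower in EL than in EH (SE of the log2 difference 0.054) and 2.97-fold lower in ELR (SE 0.057, edgeR adjusted p = 1.3e-36). CENPE, a kinetochore kinesin, had 300.2 and 279 CPM in EH, 161 and 143 in EL, and 204 and 183 in ELR. Its lowest line was EL, and it rose from EL to ELR (log2 difference 0.35, SE 0.078, edgeR adjusted p = 2.0e-04). BUB3, which brings BUB kinases to kinetochores, took the same course, with 499 and 529 CPM in EH, 395 and 411 in EL, and 516 and 510.3 in ELR. NDC80, a microtubule-binding kinetochore subunit, did the opposite: it had 252 and 247 CPM in EH, 258 and 256 in EL, and 189 and 162 in ELR, close in EH and EL, and fell from EL to ELR by 0.54 on the log2 scale. CENPA, the centromeric histone H3, had 39.2 and 34.7 CPM in EH, 15.9 and 23.6 in EL, and 18.8 and 21.1 in ELR, from 39 to 54 counts per library, and was lower in EL than in EH (log2 difference −0.96, SE 0.22, adjusted p = 2.6e-04 by edgeR).

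Within the chromosomal passenger complex, which corrects microtubule attachments, the subunits moved apart. AURKB, its kinase, had 129 and 129.7 CPM in EH, 169 and 183 in EL, and 184 and 184 in ELR. All 4 EL and ELR libraries exceeded the EH pair, and AURKB rose in EL (log2 difference 0.42, SE 0.095, adjusted p = 1.8e-04 by edgeR) and in ELR against EH (log2 difference 0.49). BIRC5, survivin, had 196 and 179 CPM in EH, 231 and 217 in EL, and 266 and 286 in ELR, and rose in each step, with log2 differences of 0.23 (SE 0.083) and 0.29 (SE 0.066). INCENP, the scaffold of the same complex, had 156 and 175 CPM in EH, 131 and 113 in EL, and 126 and 117 in ELR, and fell by 0.44 on the log2 scale from EH to EL. CDCA8, another subunit, had 156 and 187 CPM in EH, 160 and 148 in EL, and 131 and 136 in ELR, its lowest line. AURKB and BIRC5 were the only members called higher against EH in either line. With the wider ER-Src spread neither was called higher in EL, and both were in ELR.

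All 7 kinesins were lower in ELR than in EH, and 6 of 7 in EL. KIF20A, a kinesin of the central spindle and cytokinesis, had 536 and 537 CPM in EH, 376 and 423 in EL, and 222 and 217 in ELR. Its main step was from EL to ELR (log2 difference −0.86, SE 0.061, adjusted p = 5.3e-20 by edgeR). KIF14, a midbody kinesin, had 94.5 and 111 CPM in EH, 66.5 and 63.9 in EL, and 65.1 and 64.4 in ELR, and its whole fall lay between EH and EL (log2 difference −0.66, against −0.017 from EL to ELR, which was not called). KIF23, the centralspindlin motor, had 382 and 355 CPM in EH, 291 and 306 in EL, and 216 and 229 in ELR, with both steps called (−0.33 and −0.43). The log2 differences between ELR and EH for the 7 ranged from −1.31 for KIF20A to −0.30 for KIF2C, a microtubule depolymerase. KIF4A has a near-identical retrogene copy, and PTTG1 has close copies as well, so reads of these 2 genes are uncertain where the counting could have split them.

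The spindle-associated proteins gave the lowest group median between ELR and EH, −0.93, with 6 of 6 called lower. ASPM, a spindle-pole protein and at 3477 codons the longest of the 48, had 416 and 403 CPM in EH, 184 and 179 in EL, and 139 and 143 in ELR. No library of one line reached another line's range, and ASPM was 2.97-fold lower in ELR than in EH (log2 difference −1.57, SE 0.075, adjusted p = 1.5e-29 by edgeR). PRC1, the midzone bundler, had 631 and 656 CPM in EH, 381 and 358 in EL, and 274 and 249 in ELR, and fell in both steps (log2 differences −0.81 and −0.50, SE 0.056 and 0.059). CKAP5, a microtubule polymerase, had 523 and 536 CPM in EH, 318 and 305 in EL, and 229 and 244 in ELR, also lower at each step (−0.78 and −0.41). NUSAP1, which binds spindle microtubules near chromatin, had 329 and 294 CPM in EH, 313 and 333 in EL, and 199 and 204 in ELR. EH and EL overlapped for this gene, and it fell from EL to ELR (log2 difference −0.68, SE 0.065, adjusted p = 2.2e-14 by edgeR).

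Of the chromosome structure genes, 5 of 6 fell from EH to EL. TOP2A, which decatenates sister chromatids, had 1290.0 and 1269 CPM in EH, 719 and 717 in EL, and 490.0 and 511 in ELR. It fell at each step, by 0.85 (SE 0.041) and 0.53 (SE 0.044) on the log2 scale. MKI67, the Ki-67 protein that coats mitotic chromosomes, had 608 and 650.4 CPM in EH, 381 and 393 in EL, and 384 and 356 in ELR, with EL and ELR overlapping. Of the condensin subunits, SMC4 had 626 and 585 CPM in EH, 536 and 551 in EL, and 532 and 546 in ELR. SMC4, NCAPD2 and NCAPG fell from EH to EL by smaller amounts (−0.18, −0.35 and −0.25), and SMC2 (−0.080) was not called. For anaphase and mitotic exit, CDC20, the activator of the anaphase-promoting complex, had 775 and 818 CPM in EH, 608 and 607 in EL, and 695 and 717 in ELR, and UBE2C had 549 and 574 CPM in EH, 376 and 380.2 in EL, and 435 and 409 in ELR. Both were lowest in EL and rose in part from EL to ELR (0.21 and 0.16). PTTG1, the inhibitor of separase, had 267 and 260.4 CPM in EH, 296 and 287 in EL, and 267 and 266 in ELR and was called in none of the 3 comparisons. Of the cytokinesis genes, ANLN, which organises the contractile ring, had 1405 and 1328 CPM in EH, 999 and 985 in EL, and 1081 and 1059 in ELR, and ECT2, its RhoA exchange factor, had 265 and 253 CPM in EH, 195 and 200.3 in EL, and 211 and 180.2 in ELR, both called lower in EL and in ELR than in EH.

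**Figure D1:**
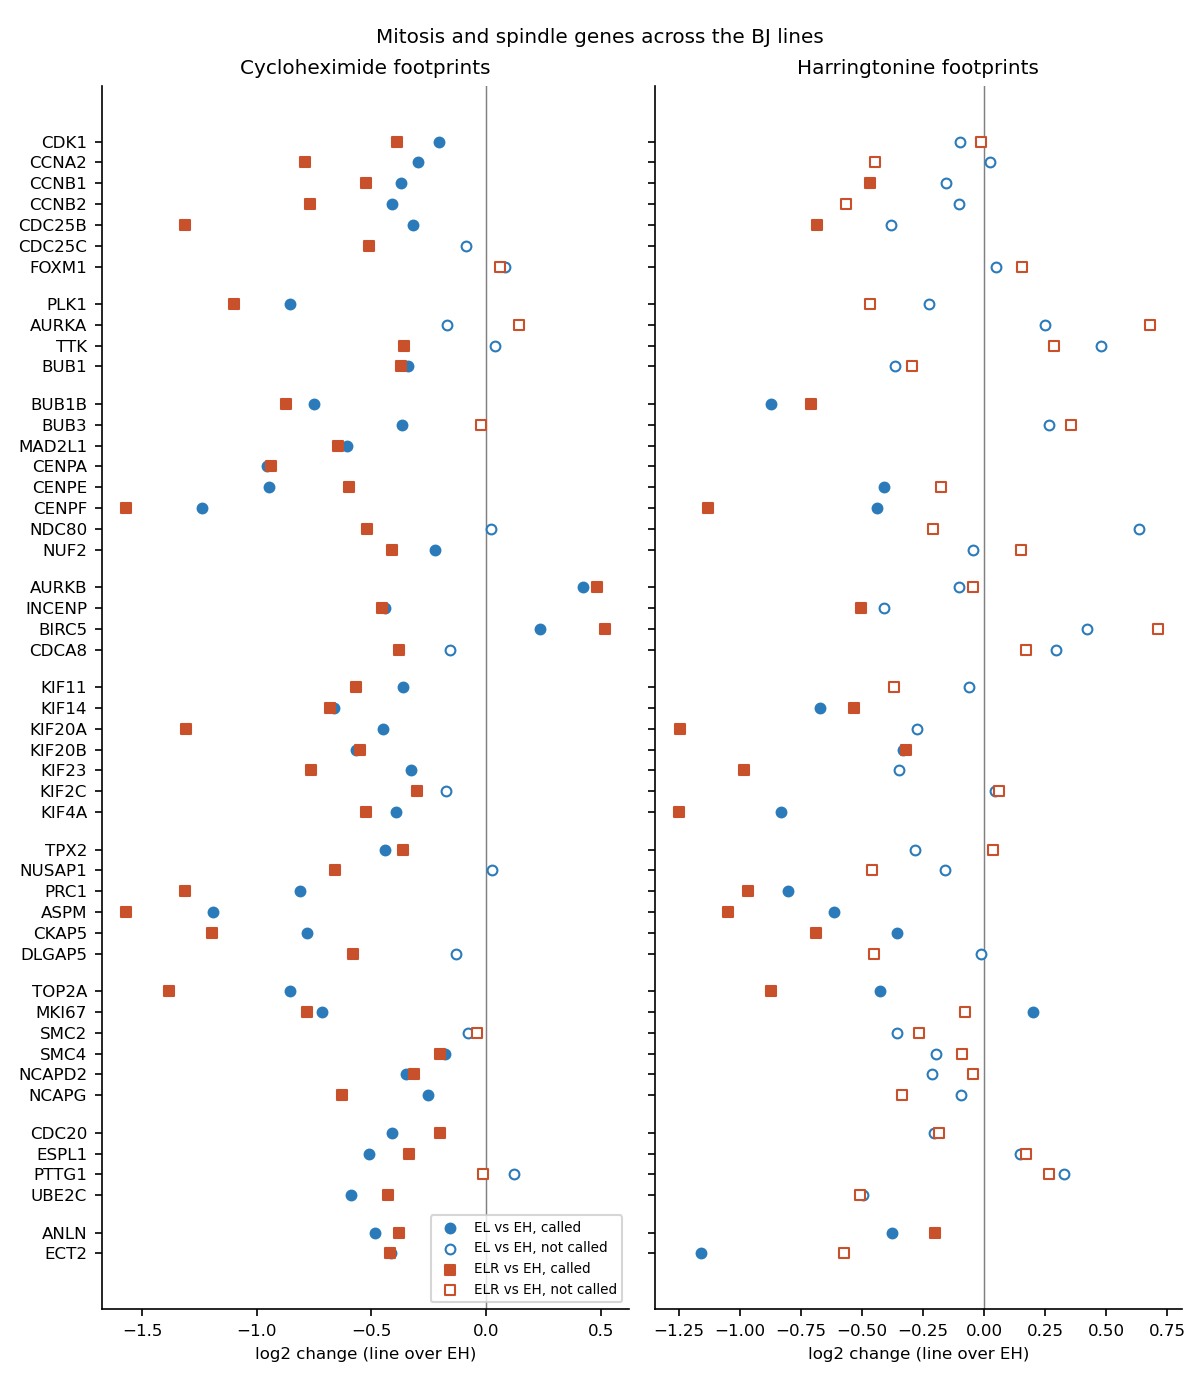
Log2 difference of footprints (x axis) of EL (circles) and ELR (squares) over EH for each of the 48 genes (y axis, grouped by role), with cycloheximide at left and harringtonine at right; filled symbols passed edgeR's test. Under cycloheximide AURKB and BIRC5 are the filled symbols to the right of 0, and ASPM and CENPF reach −1.57 and −1.57 in ELR; CDC25C, CENPA and MAD2L1 were not tested under harringtonine.

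**Figure D2:**
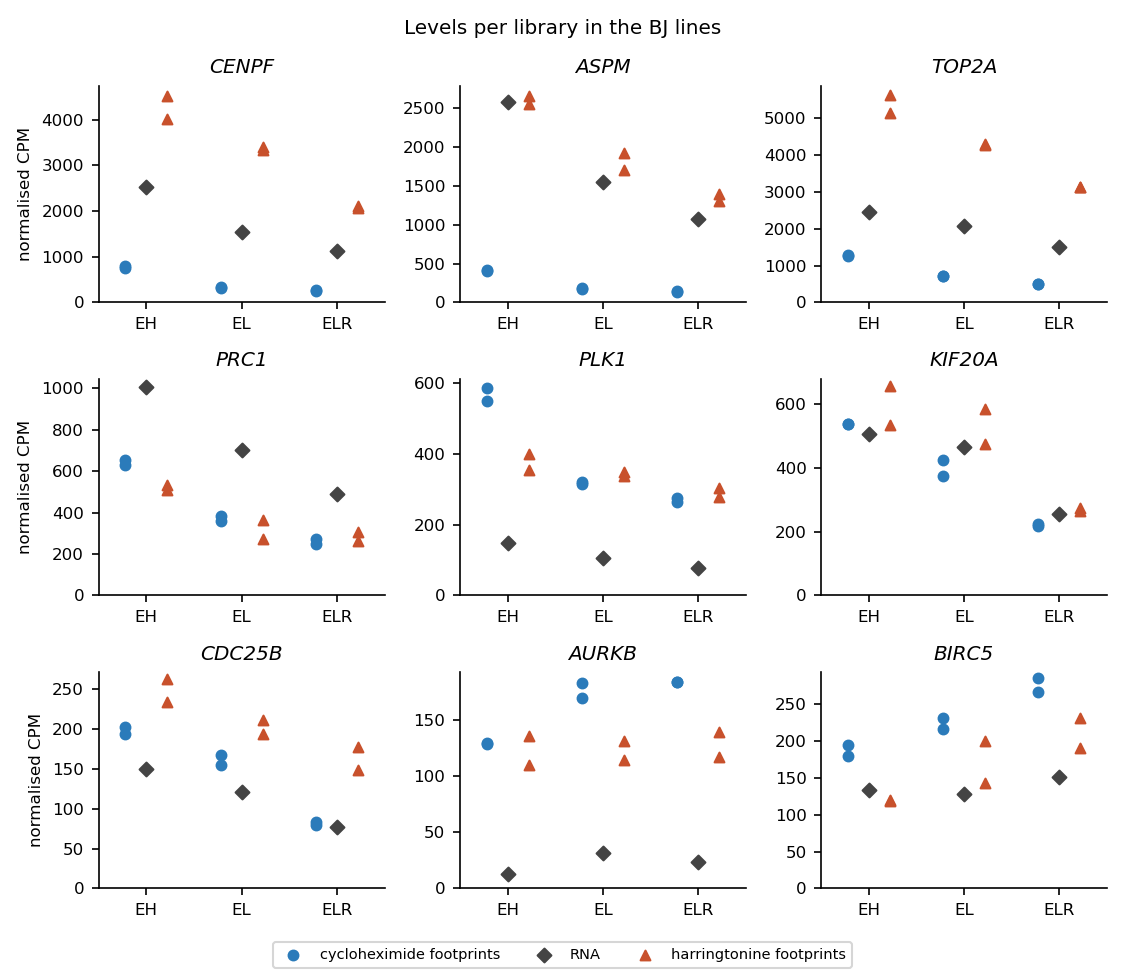
Normalised CPM (y axes, from 0) of 9 genes in each BJ library by line (x axes): circles are cycloheximide footprints, triangles harringtonine footprints, 2 libraries each, and diamonds the single RNA library. CENPF, ASPM, TOP2A and PRC1 step down from EH to EL to ELR in footprints with cycloheximide and in RNA, KIF20A and CDC25B drop mainly in ELR, and AURKB and BIRC5 cycloheximide footprints are lowest in EH.

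Of the 41 genes with a promoter in the table, the 32 with TTTGAA had a median log2 difference of −0.57 between ELR and EH, with 31 lower, and the 9 without it −0.52, with 7 lower. From EH to EL the medians were −0.41 and −0.32, with 26 of 32 and 6 of 9 lower. The difference between these sets was not tested. The 9 include BUB1 and CDC25B, which carry the second spelling of the CHR, TTCGAA. AURKA, BIRC5, BUB3, FOXM1, TPX2, TTK and UBE2C had no promoter entry and are in neither set. Among related lists, 28 of 72 other mitosis genes fell from EH to EL and 12 rose (median −0.15), where 22.4% and 19.1% of all genes did. For subunits of the anaphase-promoting complex and cohesin the numbers were 6 and 2 of 25, a share of falls near that of all genes. For regulators of cell cycle genes, such as E2F and MuvB subunits, they were 2 and 5 of 28. S phase genes went the other way, with 21 of 28 higher and 2 lower (median 0.71).

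RNA of the 48 genes was also mostly lower along the series of lines, on 1 library per line and so without a replicate check. From EH to EL the log2 ratio (of CPM plus 1) was below 0 for 37 of 48 genes, from EL to ELR for 33, and between ELR and EH for 36, with medians of −0.18, −0.23 and −0.30. Over all genes at 10 CPM or more the medians were −0.024, 0.011 and 0.0056. Genes past 1.5-fold in either direction numbered 4, 4 and 14, while 30.1%, 25.0% and 38.8% of all genes at 10 CPM or more did so. Of the 14 between ELR and EH, 13 were lower, where 21.2% of all genes were lower past that fold. From EH to EL 3 and from EL to ELR 4 were lower past it, against 16.8% and 13.8% of all genes. ASPM RNA was 2586 CPM in EH, 1549 in EL and 1079.9 in ELR, and CENPF RNA 2534 CPM in EH, 1537 in EL and 1115 in ELR. These gave the 2 lowest ratios between ELR and EH among the 48, −1.26 and −1.18. KIF20A RNA was 505 CPM in EH, 465 in EL and 254 in ELR, close in EH and EL and lower in ELR. AURKB, at 13.2 CPM in EH, 31.9 in EL and 23.8 in ELR, had the highest ratio of EL to EH (1.21), resting on 29, 69 and 63 counts.

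Ribosome loading, the change of cycloheximide footprints beyond that of RNA, was lower in EL and ELR than in EH for a part of the genes. The model assumed that the single RNA library of a line varies like the footprint pairs. From EH to EL, 12 of 48 genes fell in loading and 0 rose by edgeR's quasi-likelihood test, against 2.92% and 3.78% of all genes. Between ELR and EH 15 were lower and 0 higher, against 4.26% and 3.22%. From EL to ELR none of the 48 was called, with 8 at an unadjusted p under 0.05, 0 by DESeq2, and 2.97% of all genes called. ESPL1, separase, had the lowest values, −1.03 (SE 0.22) in EL and −0.91 (SE 0.21) in ELR. Its footprints went from 75.6 and 78.2 CPM in EH to 60.1 and 48.0 in EL, while its RNA went from 68.2 to 98.8 CPM. ANLN followed (−0.68 in EL), with RNA of 1233 CPM in EH, 1432 in EL and 1445 in ELR beside its lower footprints. TOP2A (−0.59), CKAP5 (−0.56), BUB1B, a checkpoint kinase-like protein (−0.54), and CENPF (−0.50) were called too. By DESeq2 the call was lost for BUB1B in EL (adjusted p = 0.11) and for ESPL1 in ELR (adjusted p = 0.21), and the count for ELR against EH was 5. Of the 9 genes with 1500 codons or more, 7 were called lower in EL, and of the 17 with under 500 codons 0. Other genes also differed by length, with 11.2% of the 614 of that length called lower and 1.95% of those under 500 codons. With the wider ER-Src spread no loading change was called in either line for any of the 48.

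Harringtonine footprints, which were the shallower libraries, gave fewer calls in the same direction. CDC25C, CENPA and MAD2L1 did not pass the filter on low counts, which left 45 genes. From EH to EL 12 fell and 1 rose in edgeR's quasi-likelihood test, against 11.0% and 7.57% of all genes. From EL to ELR 8 fell and 0 rose (9.91% and 6.39% of all), and between ELR and EH 15 were lower and 0 higher (17.4% and 13.3%). DESeq2 called 6, 4 and 8 genes in these comparisons. The calls lay mostly in longer genes. Of the 14 tested genes under 500 codons, 0 were called lower in EL than in EH (median −0.073) and 1 in ELR (median −0.032). Of the 9 with 1500 codons or more, 7 and 6 were. Of other genes, 7.48% and 12.9% of those under 500 codons and 17.8% and 27.0% of the longest were called lower. All 12 that fell in EL and all 15 that were lower in ELR than in EH were also called lower under cycloheximide, where the lists held 35 and 41. From EL to ELR this held for 7 of 8, MKI67 being the exception. KIF20A had 656 and 534 CPM in EH, 474 and 584 in EL, and 265 and 273 in ELR. Its step from EL to ELR was called (log2 difference −0.97, SE 0.18, adjusted p = 2.6e-06 by edgeR), and that from EH to EL (−0.27) was not. KIF4A, a chromosome-bound kinesin, had 377 and 356 CPM in EH, 239.9 and 200.2 in EL, and 173 and 156 in ELR, and ECT2 had 241 and 263 CPM in EH, 114 and 126 in EL, and 169 and 191 in ELR, both with EH above the other lines. Harringtonine levels did not overlap for 56.6% of all genes between EL and EH and 64.3% between ELR and EH. KIF4A was called lower in EL and in ELR than in EH, and ECT2 in EL. Both calls in EL were lost by DESeq2 (adjusted p = 0.13 and 0.051), and that of KIF4A also without replicate 1 of EH (adjusted p = 0.067 by edgeR) or replicate 2 of EL (adjusted p = 0.074 by edgeR). CENPF, with 4526 and 4007 CPM in EH, 3393 and 3347 in EL, and 2104 and 2073 in ELR, fell at each step (−0.44 and −0.69). MKI67 was the single gene that rose from EH to EL, with 3093 and 3279 CPM in EH, 3816 and 4005 in EL, and 3053 and 3379 in ELR (log2 difference 0.20, SE 0.073, adjusted p = 0.036 by edgeR).

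For 6 genes the difference from EH depended on the drug, and these were among the longest. In the test of the line-by-drug interaction (edgeR's quasi-likelihood test), 6 of 48 were called higher and 0 lower for EL against EH, where 1.2% and 0.181% of all genes were. For ELR against EH the same 6 genes were called higher and none lower (1.41% and 0.261% of all), and for ELR against EL none was called (0.0907% of all, 4 members at an unadjusted p under 0.05, 1 by DESeq2). MKI67 had 608 and 650.4 CPM in EH, 381 and 393 in EL, and 384 and 356 in ELR with cycloheximide. It was lower in both other lines there, whereas with harringtonine it was higher in EL, which gave an interaction of 0.95 (SE 0.090) for EL and 0.76 (SE 0.090) for ELR. The other genes fell with both drugs from EH to EL, less so with harringtonine. CENPF had an interaction of 0.83 in EL, ASPM 0.61, CENPE 0.56, CKAP5 0.45 and TOP2A 0.45. The call of CENPE in EL was lost without replicate 1 of EH cycloheximide or replicate 2 of EH harringtonine (edgeR adjusted p = 0.082 and 0.10), that of CKAP5 in EL without the latter (edgeR adjusted p = 0.052) and that of ASPM in ELR without replicate 1 of ELR cycloheximide (edgeR adjusted p = 0.069). All 6 lay among the 9 members of 1500 codons or more. Of the 557 other genes of that length, 12.6% were called higher in EL and 12.2% in ELR, against 0.215% and 0.502% of genes under 500 codons. The median interaction over all genes was 0.13 and 0.15.

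The ratio of harringtonine to cycloheximide footprints followed the length of the coding sequence closely. Over the BJ lines 28 of the 48 genes were higher with harringtonine and 13 lower (edgeR's quasi-likelihood test), against 26.1% and 34.9% of all genes. For the 17 genes under 500 codons the median log2 difference was −0.54, for the 13 from 500 to under 1000 0.52, for the 9 from 1000 to under 1500 1.34 and for the 9 longer ones 3.01. The other genes showed the same order, with −0.92, 0.073, 1.39 and 2.60. Across genes, Spearman's rho between length and this difference was 0.925 over the 48 and 0.671 over 8136 others. Genes are not independent replicates, and they share the same 12 libraries. ASPM (3.32, SE 0.053) and CENPE (3.31, SE 0.056), at 3477 and 2701 codons, were highest. MAD2L1 (−2.02, SE 0.18) and UBE2C (−1.71, SE 0.11), at 205 and 179 codons, were lowest.

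The ER-Src cells gave the same order by length. There 29 genes were higher with harringtonine and 7 lower, against 26.9% and 28.7% of all genes, in the replicate 1 libraries with time as a covariate. Medians by length were −0.47, 0.77, 1.43 and 2.26 for the 48 and −0.78, 0.42, 1.31 and 1.84 for other genes, and rho was 0.939 (n = 48) and 0.791 (n = 8286). TOP2A had 1673, 1785, 1689 and 543 CPM at 0, 1, 4 and 24 h with harringtonine and 261, 223, 199 and 191 with cycloheximide. At each time the harringtonine library was the higher (log2 difference 2.51, SE 0.18, adjusted p = 3.7e-15 by edgeR). PTTG1, of 202 codons, went the other way, with 54.0, 55.2, 30.3 and 89.2 CPM at 0, 1, 4 and 24 h and 316, 367, 357 and 292 in the same order (log2 difference −2.47, SE 0.23, adjusted p = 1.4e-12 by edgeR).

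**Figure D3:**
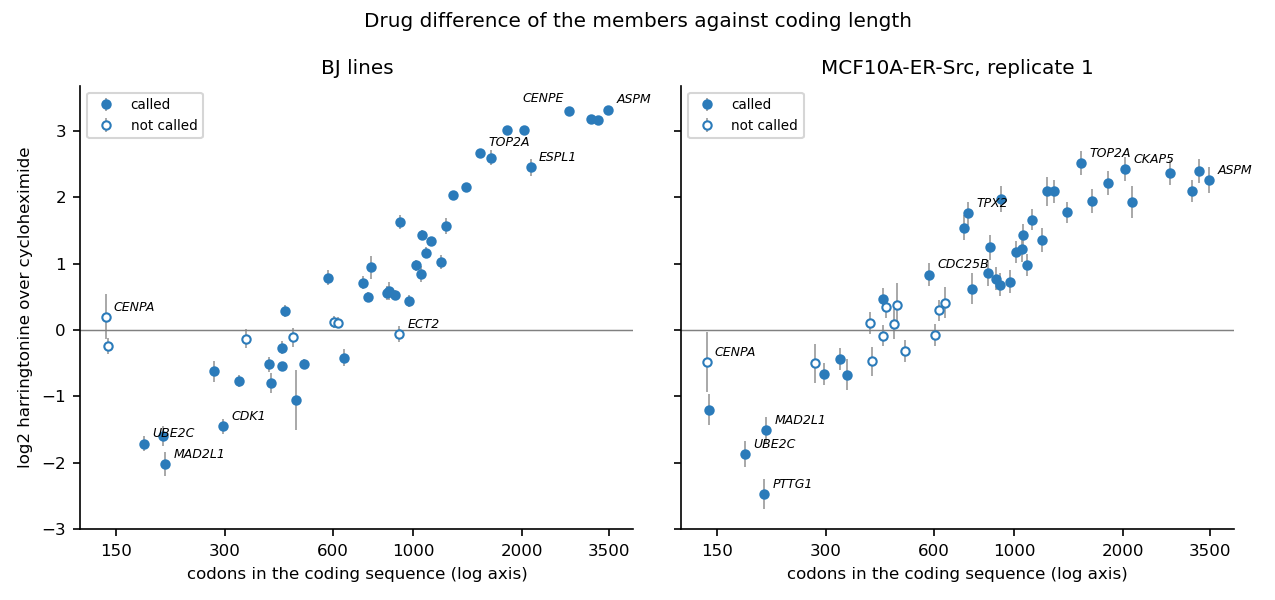
Log2 difference of harringtonine over cycloheximide footprints (y axis, bars are 1 SE) against codons in the coding sequence (log x axis) for the 48 genes in the BJ lines (left) and in the ER-Src replicate 1 libraries (right); filled points passed edgeR's test. Points climb from UBE2C, MAD2L1 and PTTG1 at the lower left to ASPM at the upper right in both panels.

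The ratio of cycloheximide footprints to RNA, each in CPM, ran the opposite way with length. In EH the median over the 48 genes was 0.697. AURKB had 9.80, UBE2C 6.53 and PLK1 3.84, and at the other end ASPM had 0.158, CENPE 0.185 and KIF14 0.2. In uninduced ER-Src cells the same 3 genes were highest, AURKB at 9.78, UBE2C at 6.87 and PLK1 at 2.85. The same 3 were also lowest, ASPM at 0.108, KIF14 at 0.142 and CENPE at 0.143. The AURKB ratio rests on 29 RNA counts in EH and 23 to 31 per uninduced ER-Src library. In EL UBE2C (5.81) stood above AURKB (5.52), and in ELR AURKB was highest (7.73). Spearman's rho with codons over the 48 genes was −0.744 in EH, −0.812 in EL, −0.796 in ELR and −0.821 in uninduced ER-Src cells. Over other genes it was −0.513, −0.574, −0.572 and −0.581. ESPL1, at 2120 codons, had 1.13 in EH and 0.647 in ER-Src cells, above the other 8 members of 1500 codons or more in both.

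**Figure D4:**
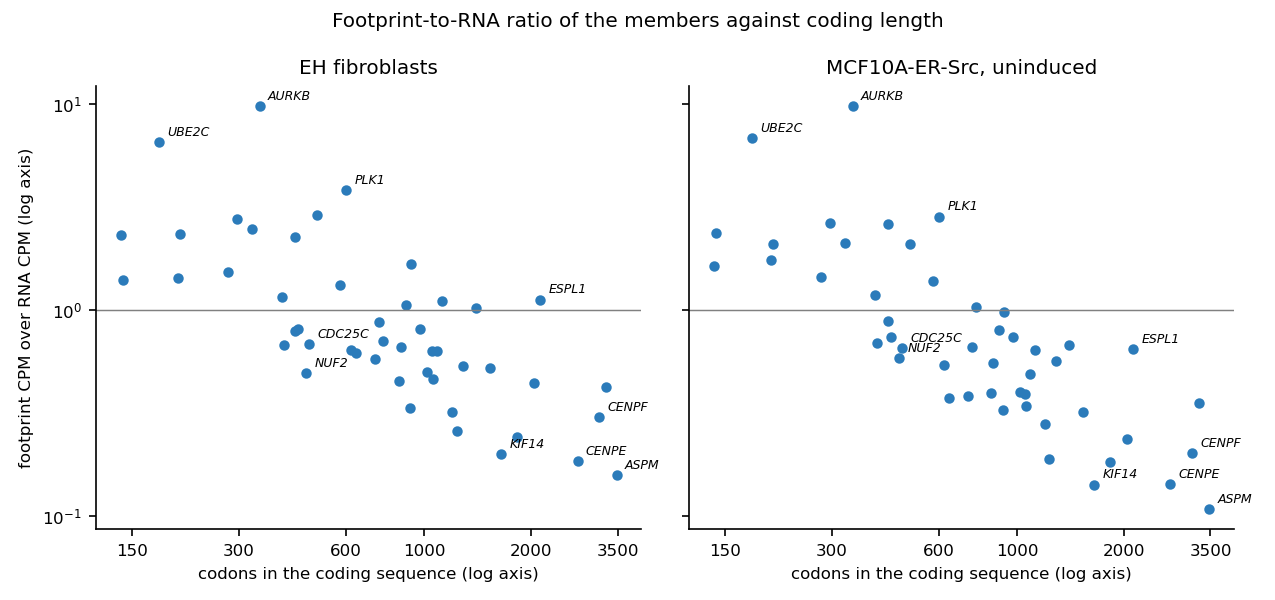
Ratio of cycloheximide footprint CPM to RNA CPM (log y axis) against codons in the coding sequence (log x axis), 1 point per gene, for EH (left) and uninduced ER-Src cells (right); the line marks a ratio of 1. AURKB, UBE2C and PLK1 lie at the top and ASPM, CENPE and KIF14 at the foot of both panels.

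In the ER-Src cells, few of the 48 genes were called after induction of Src. Tamoxifen arms were compared with the pooled uninduced arm, which is 0 h of replicate 1 with ethanol at 1, 4 and 24 h of replicate 2 for footprints, and 0 h with the 3 ethanol times for RNA. In cycloheximide footprints no gene was called at 1 h or at 4 h (edgeR's quasi-likelihood test, with 1 and 0 at an unadjusted p under 0.05, and 0 at either time by DESeq2). Of all genes 0.0196% and 0.854% were called. At 24 h 2 genes fell, against 5.84% of all genes called lower and 14.6% called in either direction. The 24 h and uninduced libraries did not overlap for 36.7% of all genes. MAD2L1, the checkpoint protein that inhibits CDC20, had 380.2 CPM at 0 h, 319.5, 316 and 272 after 1, 4 and 24 h of ethanol, 405 and 333 after 1 h of tamoxifen, 333 and 272 after 4 h, and 191 and 218 after 24 h. Both 24 h libraries lay below all 8 others (log2 difference −0.67, SE 0.16, adjusted p = 0.0085 by edgeR). KIF23, the centralspindlin motor, had 167 CPM at 0 h, 177, 193 and 142 after 1, 4 and 24 h of ethanol, 158 and 128 after 1 h of tamoxifen, 130.2 and 156 after 4 h, and 95.7 and 127 after 24 h, and its 24 h pair fell below the uninduced libraries (log2 difference −0.61, SE 0.16, adjusted p = 0.019 by edgeR). Neither call is firm: without the 24 h library of replicate 1, or with only ethanol of the same time as control, none of the 48 was called, and without the 24 h ethanol library 6 were. MAD2L1 also lost its call without the 24 h library of replicate 2 (edgeR adjusted p = 0.054), and KIF23 without the 4 h ethanol library (edgeR adjusted p = 0.055).

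RNA in these cells gave 0 calls at 1 h and at 4 h (0 and 3 at an unadjusted p under 0.05, 0 at either time by DESeq2), with 0.00942% and 0.16% of all genes called. At 24 h KIF23 alone fell, against 6.47% of all genes called. Its RNA was 214 CPM at 0 h, 220.5, 277 and 206 after 1, 4 and 24 h of ethanol, and 258, 243 and 134 after 1, 4 and 24 h of tamoxifen. The 24 h tamoxifen library was the lowest of the 7 (log2 difference −0.77, SE 0.20, adjusted p = 0.031 by edgeR, the lone library being assumed to vary like the others). Leaving out 1 uninduced library moved this count between 0 and 8: it was 0 without the 0 h, the 1 h ethanol or the 4 h ethanol library and 8 without the 24 h ethanol library. Loading was called for none of the 48 at 1, 4 or 24 h, with 0 at an unadjusted p under 0.05 and 0 by DESeq2, against 0.0%, 0.0% and 0.44% of all genes.

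The level of the whole group also differed between times, in ethanol as in tamoxifen. Median RNA over the 48 genes was 168 CPM at 0 h, 170.1, 238 and 239 after 1, 4 and 24 h of ethanol, and 158, 240.2 and 205 after the same times of tamoxifen. Both treatments stood higher at 4 h than at 1 h. PLK1 RNA, for example, was 53.9 CPM at 0 h, 61.2, 108 and 81.5 after 1, 4 and 24 h of ethanol, and 60.6, 101 and 72.7 after 1, 4 and 24 h of tamoxifen, and KIF20A RNA 115 CPM at 0 h, 99.8, 245 and 270.3 after 1, 4 and 24 h of ethanol, and 113, 253 and 230.5 after 1, 4 and 24 h of tamoxifen. In cycloheximide footprints of replicate 2 the medians were 109.8, 155 and 138 with ethanol and 98.7, 133 and 144 with tamoxifen at 1, 4 and 24 h. In replicate 1 they were 156, 156, 138 and 125 at 0, 1, 4 and 24 h. From 1 h to 24 h the median thus fell in replicate 1 and rose in both treatments of replicate 2. The ethanol median of replicate 2 fell from 4 h to 24 h. Within replicate 2, 24 of 48 genes were 1.5-fold or more higher at 4 h than at 1 h of ethanol, as were 4.27% of all genes. For 24 h of tamoxifen against its own control, the median log2 ratio was −0.40 in replicate 1 (0 h as control) and 0.049 in replicate 2 (ethanol at 24 h).

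With tamoxifen set against ethanol at matched times, a comparison chosen after seeing the data, none of the 48 genes was called in RNA or in replicate 2 footprints by edgeR's quasi-likelihood test. In each, 2 genes had an unadjusted p under 0.05, and 0.0295% and 0.0% of all genes were called. The median log2 differences were −0.039 and −0.11. These fits take 1 effect over the 3 times. In RNA, on 1 library each, the median log2 ratio of tamoxifen to ethanol was 0.029 at 1 h, 0.037 at 4 h and −0.23 at 24 h, where 42 of 48 genes were below 0. At 24 h 5 genes were 1.5-fold or more lower, against 9.37% of all genes. In the same RNA fit 7 of the 48 differed between times, against 1.24% of all genes. In the pooled 24 h comparison of footprints, whose calls among the 48 were not firm, 14 of 72 other mitosis genes were called lower and none higher, and of the S phase genes 16 of 28 lower and none higher, where 5.84% of all genes were called lower.

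Harringtonine footprints of these cells had 1 library per time, with no replicate check. Against 0 h, 4 of the 48 genes were past 1.5-fold at 1 h, 6 at 4 h and 33 at 24 h, of which 32 were lower. Of all genes at 10 CPM or more, 47.3%, 49.8% and 50.8% were past that fold. At 24 h 21.3% of all genes were lower and 29.5% higher past it. The median log2 ratio of the 48 was 0.043, −0.10 and −0.69, and that of all genes 0.011, 0.028 and 0.072. TOP2A had 1673, 1785, 1689 and 543 CPM at 0, 1, 4 and 24 h, MKI67 1225, 1294, 1181 and 409 CPM at 0, 1, 4 and 24 h and CENPE 464, 601, 659.9 and 212 CPM at 0, 1, 4 and 24 h. Each was lowest at 24 h; TOP2A and MKI67 were close over the first 3 times, and CENPE was higher at 1 and 4 h than at 0 h. PTTG1, with 54.0, 55.2, 30.3 and 89.2 CPM at 0, 1, 4 and 24 h, was highest at 24 h. The ratio at 24 h varied with length, from a median of −0.49 for members under 500 codons to −1.34 for those of 1500 or more, and from 0.27 to −0.41 for other genes. The 24 h library also held 374359 counts, against 163092 to 183044 in the other 3, and the part of this in the result was not tested.

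**Figure D5:**
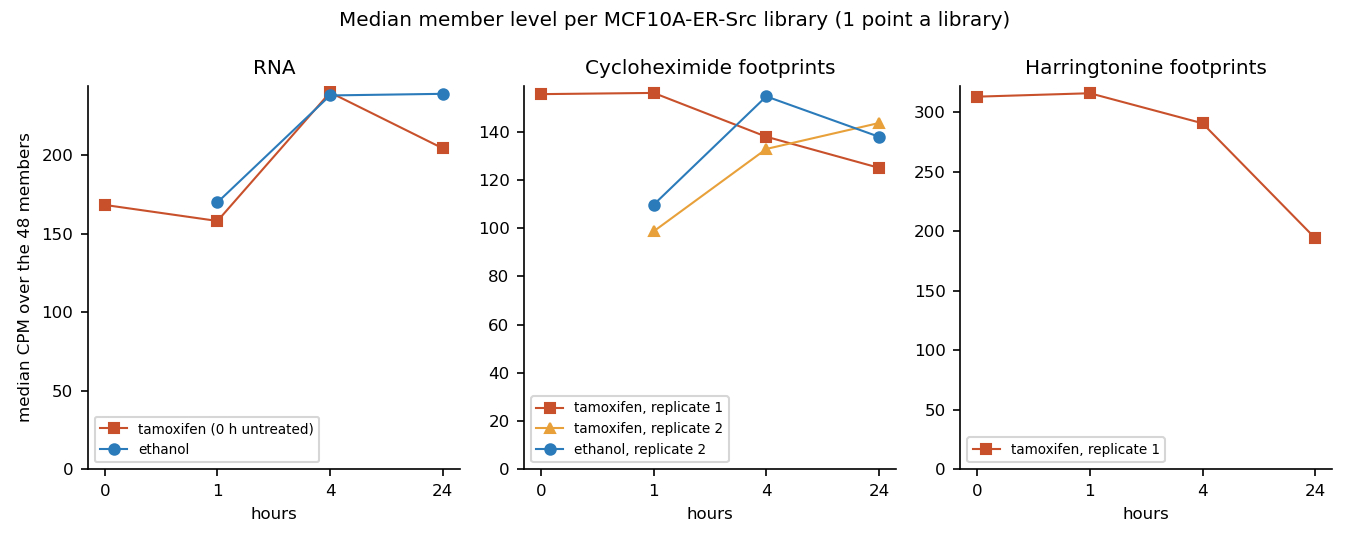
Median CPM over the 48 genes (y axes, from 0) in each ER-Src library against hours (x axes, unequal spacing) for RNA (left), cycloheximide footprints (middle) and harringtonine footprints (right); squares and triangles are tamoxifen, with 0 h untreated, and circles ethanol, 1 library per point. RNA stands at 238 and 240.2 at 4 h in both treatments, and the 24 h harringtonine library is lowest at 194. In cycloheximide footprints the tamoxifen series of replicates 1 and 2 run in opposite directions from 1 h to 24 h.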

How the data were processed

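Ribosome footprints and RNA were measured in the BJ and MCF10A-ER-Src libraries, 36 in all. The deposited files hold raw counts per transcript. The authors aligned reads with TopHat to hg19, per the submitters' processing notes; the counting program, the counted region and the use of strand are not given in the sources used here. Per the labels' protocols, RNA was depleted of ribosomal RNA.

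From these counts, 1 transcript per gene symbol was kept, that with the highest mean count. Tests used edgeR 4.0.16 in R 4.3.3 (quasi-likelihood test, TMM scaling, two-sided) on all genes that passed filterByExpr (minimum count 10, minimum total 15), with Benjamini-Hochberg adjustment over all genes and a threshold of 0.05. A gene is called where it passed. CPM are TMM-normalised within a model and assay. Loading is the interaction of assay and group. ER-Src harringtonine and BJ RNA, with 1 library per group, were compared as log2 of CPM plus 1, for genes at 10 CPM or more. Coding lengths came from GENCODE release 44 on GRCh37, and promoters from RefSeq. DESeq2 1.42.0, other size factors, no filter, a wider spread (with edgeR's likelihood-ratio test), a replicate block and leaving out each library were the alternatives. The tests were tried first on simulated counts with a single spread for all fits. In the data the fitted coefficient of variation between libraries ran from 1.79% (BJ loading) to 15.1% (ER-Src RNA). The trial therefore did not match the spread of each fit. Named genes were called genes, plus members of each role. In each comparison they had the largest change among genes without overlap between libraries, or the smallest p. The members and lists were chosen with earlier results of these data known. Depth limits the harringtonine libraries most, and intervals and p-values cover no error shared by a group's libraries.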

Additional observations from a re-analysis of the deposited data

Results flagged for a closer look

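TPX2, which activates Aurora A on the spindle, had 103.0 CPM in the cycloheximide footprints of replicate 2 after 1 h of ethanol, against 152 to 160.2 CPM in the other 3 uninduced ER-Src libraries. The gap stood out within its group of 4 by Dixon's criterion. It was 1 of 98 groups examined, and chance alone marks about 1 in 20. The median over the 48 genes was also lower in the 1 h ethanol library (109.8 CPM) than in the other 3 (138 to 156 CPM).

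The difference between BJ lines depended on the ribosome drug for 6 genes, each by edgeR's test of the interaction, with a positive value meaning a smaller fall, or a rise, under harringtonine. For EL against EH the log2 interaction was 0.61 for ASPM, 0.56 for CENPE, 0.83 for CENPF, 0.45 for CKAP5, 0.95 for MKI67 and 0.45 for TOP2A. For ELR against EH it was 0.58 for ASPM, 0.48 for CENPE, 0.50 for CENPF, 0.57 for CKAP5, 0.76 for MKI67 and 0.57 for TOP2A. The comparisons share the EH libraries.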

How the results depend on the processing

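Of the counts of called members, 271 stayed within 1.5 times the main count under the alternatives and 31 did not. Those that stayed include counts of 0 that remained 0, as in ER-Src footprints at 1 h when 1 library was left out. Values of single genes were followed only for called genes with the largest change without overlap or the smallest p in a comparison. Of these values, 851 kept their direction and side of the threshold, 54 kept direction only and 0 reversed. Because the genes were picked by the same values, these numbers do not show how stable the other members are. With the ER-Src spread, BJ cycloheximide calls numbered 14 (EL against EH), 4 (ELR against EL) and 27 (ELR against EH), and loading calls 0 (EL against EH) and 0 (ELR against EH). DESeq2 called 6, 4 and 8 members in harringtonine footprints in the same order, 1 in the line-by-drug test of ELR against EL and 5 in loading of ELR against EH. With no filter on low counts there were 8 in harringtonine footprints of ELR against EH, 1 in that line-by-drug test and 4 in ER-Src footprints at 24 h. DESeq2's size factors in edgeR gave 1 in loading of ELR against EL. Ethanol of the same time as sole control gave 0 in ER-Src footprints at 24 h. Leaving out 1 library at a time gave 32 to 36, 20 to 27 and 39 to 43 BJ cycloheximide calls. It gave 8 to 13, 5 to 8 and 9 to 16 for harringtonine, 4 to 6, 0 to 1 and 4 to 7 for line by drug, 38 to 42 for the drug difference, and 10 to 14, 0 and 10 to 19 for loading. In ER-Src cells it gave 0 to 6 for footprints at 24 h, 0 to 1 for RNA at 4 h, 0 to 8 for RNA at 24 h and 32 to 40 for the drug difference. The median of the line-by-drug difference of ELR against EL was 0.049 and changed sign, to −0.048 with no filter, −0.034 without replicate 1 of EL cycloheximide, −0.071 without replicate 1 of ELR harringtonine, −0.022 without replicate 1 and −0.026 without replicate 2 of ELR cycloheximide, −0.026 without replicate 2 of EH cycloheximide, and −0.015 and −0.010 without replicate 2 of EL and of ELR harringtonine. It lay between −0.071 and 0.055 when 1 library was left out. Replicate numbers were not taken to pair the samples, which asked for a correlation of replicate deviations above 0.1 in every pair of groups. It was −0.023 to 0.038 in BJ. In ER-Src footprints 2 of 3 pairs passed (0.21 for 1 h with 4 h, 0.28 for 4 h with 24 h), and 1 h with 24 h (0.049) did not. With a replicate block, 37, 27 and 42 members were called in BJ cycloheximide footprints, 13, 9 and 14 in harringtonine footprints, 13, 0 and 17 in loading, and 0, 0 and 2 in ER-Src footprints. For other moved values the cause was not tested.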
